A study of Mus musculus with 383 samples.

Results

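The interferon response genes B2m, Ifi27, Stat2, Ifit1, Ifit3, Isg15, Irf7, Irf9 and Usp18 were described in single nuclei that had been labelled with a virus. They were chosen by name, with earlier results of these data known, and all 9 were among the 29779 genes of the count table. They were examined over the 316 nuclei, of 383 in the table, in which at least 1000 genes had a read. The tissue was the dorsal vagal motor nucleus (DMV), the hindbrain nucleus whose motor neurons send parasympathetic fibres through the vagus nerve to the gut. The animals were male Chat-IRES-Cre mice of the C57BL/6 strain, in which Cre recombinase is made where the acetylcholine-synthesising enzyme is expressed. At 10 weeks of age they received 100 nL of the adeno-associated virus AAV9-DIO-H2b-mCherry, which makes a red nuclear protein only in cells with Cre. Tissue was taken 16 days later and pooled, and red nuclei were sorted 1 per well. The design text gives an age of 12 weeks.

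All nuclei came from injected mice, and the labels describe no group of uninjected nuclei. How far the levels below depend on the virus, the injection or the dissection cannot be told apart. The labels name no animal, so the series counts as 1 sample. Nuclei are not replicates of a condition, no test was made, and the intervals cover counting error only.

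Interferons are secreted proteins that warn cells of infection. Type I interferons bind a receptor made of Ifnar1 and Ifnar2, whose kinases activate transcription factors, among them Stat2. Stat2 and Irf9 are parts of a complex that binds the interferon-stimulated response element in the promoters of antiviral genes. The proteins made in turn bind viral RNA, modify other proteins, raise antigen presentation or shut the receptor down. Neurons can respond to interferons, and many of the genes are also made at a low level without infection.

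Read totals of the 316 nuclei ran from 1590 to 4699420, with medians of 1440075 reads and 11234.5 genes. The nucleus with the fewest genes that was retained had 1040 genes, and the nucleus with the most genes among those left out had 988. Chat, which marks cholinergic neurons, had a read in 304 of 316 nuclei (96.2%). Clustering without any listed interferon gene put 22 nuclei in a somatic motor-like class and 294 in a visceral motor-like class, each named from marker genes. In the somatic class, somatic motor markers were found in 53.8% of nuclei on average and visceral motor markers in 25.5%. Reads of other cells' markers were present too. At equal depth, 7 microglia markers, Cx3cr1, P2ry12, Csf1r, Tmem119, C1qa, C1qb and Trem2, each had a read in 2.37% to 28.5% of nuclei. Their summed level had a median of 2 and a highest value of 580 reads per 1000000 reads (RPM). Their part in the levels below was not tested, beyond the values given without nuclei that hold them. None of the 6 T and NK cell markers had a read in more than 2.03% of nuclei.

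Some wells held nearly the same profile. Over 14995 genes, 12 pairs of nuclei had a correlation of log2(RPM + 1), with each gene's mean removed, of 0.77 to 0.98, and the highest of any other pair was 0.55. Of the 12 pairs, 10 had neighbouring nucleus numbers between 193 and 288, and both nuclei of each pair fell in the same cluster of the visceral motor-like class. Numbers 213 and 214 were the least alike, with a correlation of 0.77. Their counts differed by a chi square per gene of 66.4, against a median of 2.37 over the 12 pairs. Among 200 other pairs drawn, its lowest value was 28.9 and its median 72.9. The 24 nuclei, this pair less surely, cannot be counted as separate, so the intervals below are somewhat too narrow. Values with 1 nucleus of each pair, and with neither, are given beside the results they touch, as alternatives chosen after seeing the data.

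The response element is shown first, because 5 of the 7 genes with a promoter entry in RefSeq held its letters. The motif searched was GAAANNGAAA on either strand, which reads TTTCNNTTTC on the other, in windows from 250 bases before to 50 after each RefSeq start (GRCm38.p6). It was found in B2m, Stat2, Ifit1, Ifit3 and Isg15, in 3.99% of all 27025 genes with an entry, and in 3.44% of 32851 windows. The single Irf7 window and both Irf9 windows did not hold these letters. A match is a description of the sequence and not a measured binding site. The stretches below run 5′ to 3′ on the gene's strand, with motif letters in capitals and 12 bases on each side.

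Ifit1, chr19:34640773-34640825, plus strand: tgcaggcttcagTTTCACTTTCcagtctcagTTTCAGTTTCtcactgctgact

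Ifit3, chr19:34583361-34583428, plus strand: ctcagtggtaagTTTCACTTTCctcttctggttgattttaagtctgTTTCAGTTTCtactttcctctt

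Isg15, chr4:156200863-156200908, minus strand: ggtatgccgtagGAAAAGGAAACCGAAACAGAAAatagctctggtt

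Stat2, chr10:128270264-128270297, plus strand: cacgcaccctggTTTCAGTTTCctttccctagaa

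B2m, chr2:122147536-122147569, plus strand: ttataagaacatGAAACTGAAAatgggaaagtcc

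Ifit1 and Ifit3 each held 2 separate copies, and Isg15 held 3 copies that overlap. The copies of Isg15 and Ifit1 lay nearest to the start, from 56 and 75 bases before it. B2m and Stat2 held 1 copy each, 129 and 212 bases before the start. The Ifit3 stretch was identical over its 68 bases to that of its neighbour Ifit3b. The transcripts of this pair are alike too: 51.2% of the 50-base words of Ifit3 also occur in Ifit3b. Reads of Ifit3 may therefore be divided uncertainly with Ifit3b, and its values below carry that limit. The share of such words held by any other gene was at most 7.13% for the 8 other genes. Irf9 shares words with Rnf31, which overlaps it on the same strand, and Usp18 with Gm44148 on the other strand. B2m overlaps Patl2 and Irf7 overlaps Phrf1, in both cases on the other strand. The use of strand in counting was not given in the sources used here.

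B2m, Ifi27 and Stat2 were found in nearly every nucleus, Irf9 and Usp18 in most, and Ifit1, Ifit3, Irf7 and Isg15 in fewer. To compare shares at 1 depth, each nucleus was thinned at random to 500000 reads, which 295 nuclei reached, and a gene counted as found with at least 1 read. The median share of the 9 genes was 60.0%, against 18.3% over all 29265 genes with a read. In over 50% of nuclei, 5 of the 9 were found, and 33% of all genes with a read were. All 9 had a read in at least 10% of the thinned nuclei. The order of shares below was the same with and without thinning. With 1 nucleus of each alike pair the median share was 58.1% (284 nuclei), and with neither it was 57.0% (272 nuclei).

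B2m encodes the light chain of class I antigen-presenting molecules (ENSMUSG00000060802.8, chromosome 2, 122147686 to 122153083, GRCm38, as for the genes below). It was found in 98.3% of thinned nuclei (exact Clopper-Pearson 95% interval 96.1 to 99.4) and in 96.5% of the 316 unthinned nuclei. Its level per nucleus was 0 at lowest, 208.5 at the median and 2230 RPM at highest. That highest level came from a nucleus with 65485 reads, and among nuclei that reached 500000 reads the highest was 957.3 RPM. Ifi27, an interferon-inducible gene whose protein has been placed in mitochondria and at the nuclear envelope, lies on chromosome 12 (103434211 to 103440239). It was found in 94.6% of thinned nuclei (91.3 to 96.9), with 0, 86.9 and 486.8 RPM as the lowest, median and highest level. Both genes had a broad, graded distribution with few nuclei at 0.

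Among the transcription factors, Stat2 was frequent, Irf9 intermediate and Irf7 infrequent. Stat2 (chromosome 10, 128270559 to 128292849) was found in 91.9% of thinned nuclei (88.1 to 94.7), with a median of 70.6 RPM. Its highest level among nuclei with at least 500000 reads was 469.9 RPM, and the 1258 RPM of 1 nucleus with 1590 reads rested on 2 reads of the gene. Irf9 (chromosome 14, 55603571 to 55610030), the DNA-binding partner of the complex, was found in 69.5% (63.9 to 74.7), with a median of 19.3 and a highest level of 190.8 RPM. Irf7 (chromosome 7, 141262706 to 141266481), which drives a second wave of interferon genes, was found in 31.9% (26.6 to 37.5). Its median was 0, its upper quartile 8.34 and its highest level 127.5 RPM. The 3 intervals did not overlap, so this order exceeded counting error over these nuclei.

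Usp18 encodes the protease that removes Isg15 from proteins and also blocks the type I receptor (chromosome 6, 121245906 to 121270917). It was found in 60.0% of thinned nuclei (54.2 to 65.6), with a median of 4.57 and a highest level of 248.7 RPM. Its target Isg15, a ubiquitin-like protein (chromosome 4, 156199424 to 156200818), was the least often found gene of the 9. Isg15 was found in 34 of 295 thinned nuclei (11.5%, 8.12 to 15.7), and its highest level was 54.4 RPM. In the 39 unthinned nuclei that had a read of Isg15, the median was 8 reads. One nucleus held 14.7% of all its 448 reads.

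Ifit1 and Ifit3, which encode antiviral proteins of the RNA-binding Ifit complex, were each found in a part of the nuclei, at widely different levels. Ifit1 (chromosome 19, 34640871 to 34650009) was found in 147 of 295 thinned nuclei (49.8%, 44.0 to 55.7). Its median over the 316 unthinned nuclei was 0.519 RPM, its upper quartile 56.7 and its highest level 369.5 RPM. In the 160 nuclei with a read it had a median of 69 reads. Ifit3 (chromosome 19, 34583531 to 34588731) was found in 34.2% (28.8 to 40.0), with a highest level of 282.9 RPM and a median of 31 reads where it had any. The neighbouring Ifit3b was found in 23.4% (18.7 to 28.6).

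The reads of the less frequent genes were concentrated in few nuclei. The 32 nuclei with the most reads of a gene, about 10% of those retained, held 23.8% of the reads of B2m, 29.2% of Ifi27 and 35.8% of Stat2. They held 39.4% of the reads of Irf9, 51.4% of Usp18 and 57.5% of Ifit1. For Irf7, Ifit3 and Isg15 they held 66.3%, 70.5% and 97.5%. This follows in part from how few nuclei had a read, 39 for Isg15. Genes of like share were not compared.

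**Figure D1:**
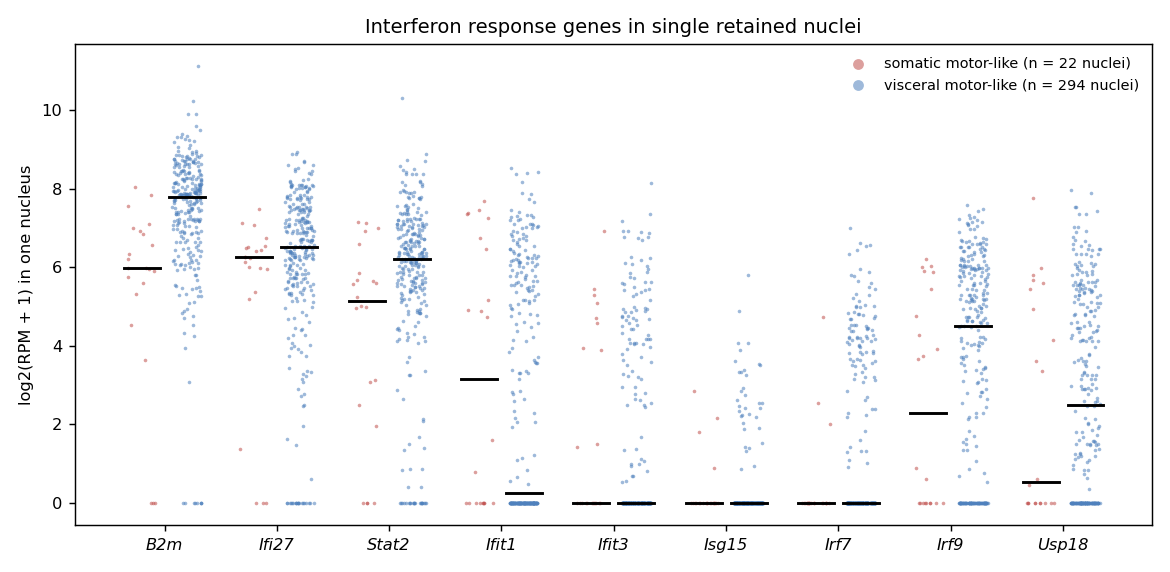
Level of each gene in every retained nucleus as log2(RPM + 1), with 22 somatic motor-like nuclei (red) left of 294 visceral motor-like nuclei (blue); black lines are medians. B2m, Ifi27 and Stat2 form a broad cloud, while Ifit1, Ifit3, Isg15 and Irf7 have many nuclei at 0 and others well above it.

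Per kilobase of the longest protein-coding transcript, the summed level was highest for B2m, at 232.8 RPM per kilobase, and next for Ifi27, at 109.3. Stat2 followed at 20.0 and Ifit1 at 14.2. Usp18 at 11.9 and Irf9 at 11.4 were close to each other, and their quartile ranges over nuclei, before scaling to length, overlapped widely. Ifit3 had 6.58, Irf7 3.26, Ifit3b 3.16 and Isg15 1.25. The counting mode was not given in the sources used here, so reads from introns may be included, and this scale assumes exon reads.

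Most nuclei had reads of several of the genes, and few had all or almost none. At equal depth, every nucleus had at least 1 of the 9. At least 6 of the 9 were found in 138 of 295 nuclei (46.8%, 41.0 to 52.7), and at least 8 in 37 nuclei (12.5%, 8.99 to 16.9). All 9 were found in 8 nuclei (2.71%, 1.18 to 5.27), and 13 nuclei had only 1 or 2. At least 6 were found in 45.4% of nuclei with 1 nucleus of each alike pair, and in 44.1% with neither. The counts to be had from the 9 separate shares alone were not computed. These counts therefore do not tell whether the genes were found together more often than their shares imply.

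**Figure D2:**
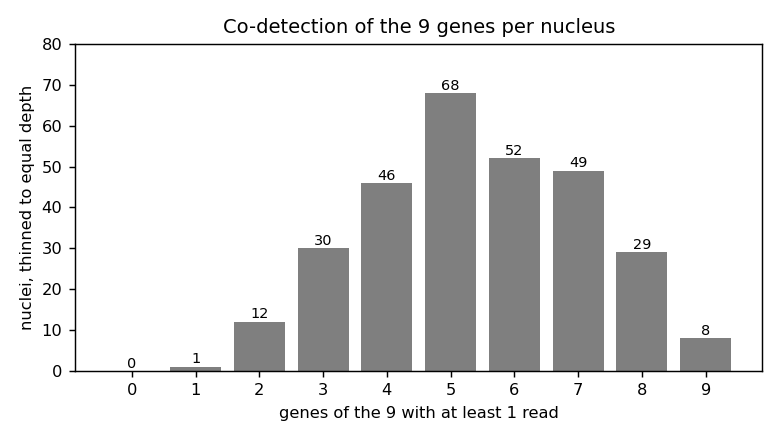
Number of thinned nuclei (vertical axis) by how many of the 9 genes had at least 1 read in them (horizontal axis). The most frequent number was 5, in 68 nuclei, and 8 nuclei had all 9.

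Ifit1 and Ifit3 showed the largest gain when found together among the 36 pairs, leaving aside shares beside B2m, which only 5 nuclei lacked. Ifit3 was found in 81 of 147 nuclei with Ifit1 (55.1%, 46.7 to 63.3), against 20 of 148 nuclei without it (13.5%, 8.45 to 20.1). Ifit1 was found in 80.2% of nuclei with Ifit3, against 34.0% of nuclei without it. Of the words of Ifit1, 7.13% occur in other genes, nearly all of them in Ifit1bl2.

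The other genes were found more often beside Ifit1 as well, although the gain differed between them. Usp18 was found in 72.1% (64.1 to 79.2) of nuclei with Ifit1, against 48.0% (39.7 to 56.3) of nuclei without it. Irf7 was found in 42.9% (34.7 to 51.3), against 20.9% (14.7 to 28.4), and Irf9 in 79.6% (72.2 to 85.8), against 59.5% (51.1 to 67.4). Isg15 was found in 17.7% (11.9 to 24.8) of nuclei with Ifit1, against 5.41% (2.36 to 10.4). For B2m, Ifi27 and Stat2, which few nuclei lacked, the intervals beside and without Ifit1 overlapped.

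Of the 36 pairs, 13 had intervals that lay apart in at least 1 direction of reading, each with the higher share where the other gene was present, and 2.06% of 157896 pairs of one of the 9 with an outside gene did. With 1 nucleus of each alike pair the count was 13, and with neither it was 11. Ifit3 was then found in 54.7% and 55.4% of nuclei with Ifit1, against 13.8% and 14.1% of nuclei without it. The genes also moved with the number of genes found and the ribosomal level, given below, whose part in these pairs was not tested. Intervals overlapped for the pairs of Isg15 with Irf7, Irf9 and Usp18, as for every other pair of the 36 outside the 13. Isg15 was found in 12.2% (8.05 to 17.5) of nuclei with Irf9, against 10.0% (4.68 to 18.1) of nuclei without it. With 34 nuclei holding Isg15, a difference of a few percentage points was not detectable at this depth.

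Levels were compared in the same nuclei. Over the 295 thinned nuclei, the correlation of log2(RPM + 1) was 0.50 between Ifit1 and Ifit3, 0.45 between B2m and Ifi27, and 0.36 between Ifit1 and Usp18. The median of the 36 pair correlations was 0.22, and the lowest was 0.00, for Isg15 and Irf9. Correlations of at least 0.2 were found in 22 of the 36 pairs, and in 2.41% of 157896 pairs of one of the 9 with a gene outside the list found in at least 10% of nuclei. The median over those outside pairs was 0.03. For each gene in turn, correlations of at least 0.2 were found with 8 of the 8 others for Ifit1 (1.26% of 17552 genes), and with 6 of 8 for B2m (9.41%), Ifit3 (1.17%) and Usp18 (0.872%). They were found with 5 of 8 for Stat2 (0.746%), 4 of 8 for Irf9 (0.741%) and Irf7 (0.479%), 3 of 8 for Ifi27 (7.18%) and 2 of 8 for Isg15 (0.108%). B2m and Ifi27 thus had the largest shares of all genes at this level. With 1 nucleus of each alike pair, 19 of 36 pairs reached 0.2 and the pair of Ifit1 and Ifit3 had 0.50. With neither, 20 pairs did and Ifit1 and Ifit3 again had 0.50. All nuclei share 1 tissue pool and 1 library protocol, so these are descriptions.

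**Figure D3:**
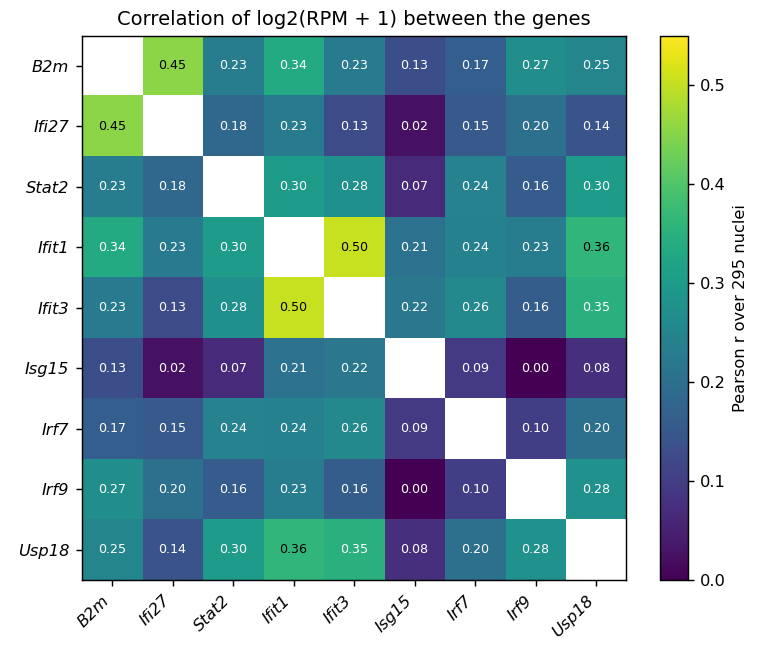
Pearson correlation of log2(RPM + 1) over 295 thinned nuclei for each pair of the 9 genes, with the value in each cell. The pair of Ifit1 and Ifit3 is highest at 0.50, and the row of Isg15 holds values from 0.00 to 0.22.

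The closest genes differed between the 9. For Ifit1 the closest of 17552 genes was Ifit3, followed by the interferon-inducible GTPase genes Igtp (0.47) and Irgm1 (0.47). Usp18 had Ifit1 as its closest gene (0.36), then Irgm2 (0.36) and Ifit3 (0.35). Stat2 was closest to Irgm2 (0.41), Gbp7 (0.40) and Iigp1 (0.39), and Ifit3, after Ifit1, to Irgm2 (0.42) and Gbp3 (0.42). Irf9 was closest to Igtp (0.33), Irgm2 (0.32) and Oasl2 (0.31).

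B2m was closest to H2-D1 (0.69) and H2-K1 (0.69), which encode the heavy chains that B2m pairs with, and to Bst2 (0.59). Ifi27 was closest to H2-D1 (0.55), to Ecel1 (0.48), a protease gene induced by nerve injury, and to B2m (0.45). Irf7 was closest to Oas1a (0.34), Fam159a (0.34) and Igtp (0.31). Isg15 was closest to Efnb1 (0.29) and Pcdhb18 (0.28), and then to the interferon-inducible Ifi47 (0.23). Its low counts make this order weak. Class I heavy chain genes are close paralogs, so reads may be divided uncertainly among them.

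Averaged over the 9 genes, the 10 closest of 17544 other genes were Igtp (0.34), Irgm2 (0.33), H2-D1 (0.33), Bst2 (0.32), H2-K1 (0.32), H2-Q7 (0.32), H2-Q6 (0.31), Oasl2 (0.31), Psmb8 (0.30) and Gbp7 (0.29). The median over all of these genes was 0.03 and the 95th percentile 0.12. The same 10 genes were closest with 1 nucleus of each alike pair and with neither. Of the 50 closest genes, 21 were on the lists of interferon pathway genes described below, which held 68 of the 17544 genes ranked. Of the 10, Igtp, Irgm2, Bst2 and Gbp7 held the response element letters shown above, as did 3.99% of all 27025 genes with an entry.

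Other features of the nuclei moved with the genes. The mean level of the 9 genes had a correlation of 0.42 with the summed level of ribosomal protein genes, 0.34 with the number of genes found at equal depth and 0.24 with the mitochondrial share. It was 0.25 with the summed 7 microglia markers, 0.08 with the T and NK cell markers, 0.33 with the axon injury list, -0.23 with reads before thinning and -0.03 with nucleus number. Single genes differed: B2m and Ifi27 had the highest correlations with the ribosomal genes (0.55 and 0.44) and with the injury list (0.57 and 0.42). Ifit1 had 0.25 with the ribosomal genes and 0.14 with the injury list, and Ifit3 had 0.20 and 0.07.

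With the number of genes found and the ribosomal level removed by a linear fit, the median pair correlation was 0.17, and after removing cluster means it was 0.18. In the 140 nuclei with no read of the 7 microglia markers it was 0.20. In those 140 nuclei Ifit1 was found in 39.3% and Ifit3 in 24.3%, and 37.1% had at least 6 of the 9 genes. These alternatives were chosen after seeing the data.

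The labels name no plate, so nuclei were also divided into 4 blocks of 96 nucleus numbers. The thinned share of Ifit1 ran from 42.5% to 52.6% over blocks, that of Ifit3 from 27.5% to 42.9% and that of Usp18 from 58.0% to 63.2%. B2m stayed between 97.4% and 98.7%. The correlation of Ifit1 and Ifit3 was 0.42, 0.57, 0.52 and 0.51 in the blocks in order of number, and the median over pairs was 0.22, 0.24, 0.13 and 0.22. The block of numbers 193 to 288 held 10 of the 12 alike pairs, and with 1 nucleus of each its median was 0.16 and its share of Ifit1 49.2%.

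The other genes of the pathway were taken from lists. Over all 29265 genes with a read, 33% were found in over 50% of thinned nuclei, the share to set beside the counts below. Transcripts of the interferons themselves were rarely found. Of 9 listed, 6 were analysed here, and each had a read in at most 3 of 316 unthinned nuclei, with Ifng in 3, Ifnl2 in 2 and Ifne in 1. Of the 6 receptor genes, 5 were found in over 50% of thinned nuclei. Ifngr2, a chain of the interferon gamma receptor, was found in 76.9%, Ifnar1 in 67.5% and Ifnar2 in 57.3%. The mean correlation with the 9 genes was 0.06 for Ifnar1 and 0.04 for Ifnar2.

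All 7 listed genes of receptor signalling were found in over 50% of nuclei, led by the kinase gene Jak1 (99.0%), Stat3 (97.6%) and Stat2. The mean correlation with the 9 genes was 0.09 for Jak1 and -0.02 for the kinase gene Tyk2. Among the brakes, Pias1, which inhibits Stat proteins, was found in 93.2%, Trim30a in 59.0% and Socs1 in 12.5%.

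Of 18 nucleic acid sensors and adaptors, 4 were found in over 50% of nuclei, which is below the 33% of all genes with a read. The kinase gene Tbk1 was found in 95.9%, Irf3 in 73.6%, and the RNA sensor genes Ddx58 and Ifih1 in 72.2% and 56.6%. Tlr9, an endosomal receptor for DNA, was found in 7 of 295 nuclei (2.37%). The mean correlation with the 9 genes was 0.18 for Ddx58 and 0.23 for Ifih1, and -0.03 for Tbk1.

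Of 36 effector genes in the table, which include 4 of the 9, 11 were found in over 50% of nuclei. That is near the 33% of all genes with a read. Another 18 were found in 10% to 50% and 7 in fewer. Ifi27 led, followed by Oasl2 (88.1%), a gene of the 2′-5′ oligoadenylate synthetase family, and Ifi35 (85.4%). Of 11 class I presentation genes, 10 were found in over 50%, led by H2-D1 (98.6%), B2m and H2-K1 (96.9%). Leaving out the 9 genes themselves, the median of the mean correlations with them was 0.25 for the class I list and 0.18 for the effectors. It was 0.09 for the genes of interferon gamma and class II, 0.06 for the sensors and 0.09 for the axon injury list. Over the 68 listed interferon genes outside the 9 it was 0.16, against 0.03 over all genes.

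Of 11 genes of interferon gamma and class II, Irf1 (52.5%), Gbp7 (44.1%) and Gbp3 (40.3%) were found most often. The chemokine genes Cxcl9 and Cxcl10 were found in 3.05% and 1.02%.

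The list of genes of injured axons was led by Gap43 (99.3%), a growth cone gene, Ecel1 (97.6%) and Stmn4 (92.2%). Of its 11 genes, 6 were found in over 50% of nuclei. Their mean correlations with the 9 genes were 0.10 for Gap43, 0.19 for Ecel1 and 0.07 for Stmn4.

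Somatic motor-like nuclei were compared with visceral motor-like nuclei, and none of the 9 genes passed the limit. The limit was a difference of 40 percentage points with intervals that lay apart, which 1.34% of 17553 genes passed, 0.536% higher and 0.803% lower in somatic motor-like nuclei. Over all 29265 genes with a read it was 0.834%. None of the 100 listed interferon genes in the table, the 9 included, passed it. With 22 somatic motor-like nuclei, smaller differences were not detectable for most genes. Irf7 and Ifit3 had shares of 33.3% in visceral motor-like nuclei and Isg15 had 11.4%, so they could not be 40 points lower. B2m, Ifi27 and Stat2, at 99.3%, 95.6% and 92.7% there, could not be 40 points higher in somatic motor-like nuclei.

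B2m was found in 19 of 22 somatic motor-like nuclei (86.4%, 65.1 to 97.1), against 271 of 273 visceral motor-like nuclei (99.3%, 97.4 to 99.9). These intervals lay apart, but the share of all genes with intervals apart at any difference was not counted. Whether B2m stands out among all genes in this respect can therefore not be told. Its lowest, median and highest levels were 0, 62.0 and 260.7 RPM in the 22 somatic and 0, 221.1 and 2230 RPM in the 294 visceral motor-like nuclei, the last from the nucleus with 65485 reads, so the ranges overlapped. Its summed level was 87.0 RPM in somatic and 209.8 RPM in visceral motor-like nuclei. The classes also differed in the number of genes found at equal depth (medians of 9894 in somatic and 10235 in visceral motor-like nuclei) and in the mitochondrial share (0.117% and 0.0853%), whose part was not tested. For the other 8 genes the intervals overlapped. Irf9 was found in 50.0% (28.2 to 71.8) of somatic against 71.1% (65.3 to 76.4) of visceral motor-like nuclei, and Irf7 in 13.6% (2.91 to 34.9) against 33.3% (27.8 to 39.3). Ifit1 was found in 50.0% (28.2 to 71.8) against 49.8% (43.7 to 55.9), and Ifit3 in 45.5% (24.4 to 67.8) against 33.3% (27.8 to 39.3).

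**Figure D4:**
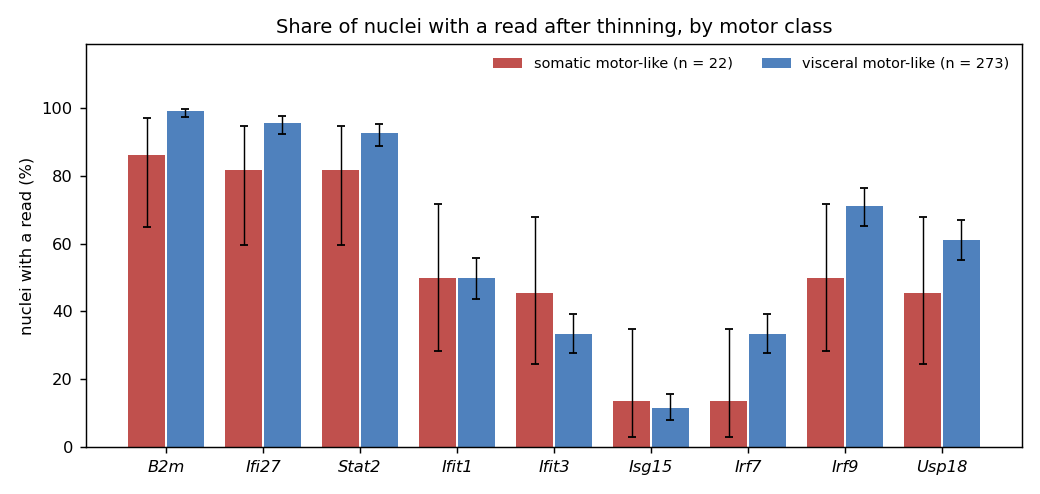
Percent of thinned nuclei with a read of each gene in 22 somatic motor-like (red) and 273 visceral motor-like nuclei (blue); bars are shares and lines exact 95% intervals. B2m is the one gene whose intervals lie apart, at 86.4% in somatic and 99.3% in visceral motor-like nuclei.

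Within the visceral motor-like class, clusters built without any listed interferon gene differed in Ifit1, Ifit3 and Usp18, but this depended on how clusters were built. No gene of the 9 passed with a minimum of 500 genes a nucleus, 1 did with 20 neighbours and 1 with 1 nucleus of each alike pair. In the clusters reported, these 3 passed the limit of 40 points between the highest and the lowest of 10 clusters, and 27.2% of 17530 genes did (16.4% of all genes with a read). A count of 3 of 9 is near that background and is no result about the 9 genes as a list. Interferon-inducible genes on no list, such as Ifi202b, were not held out of the clustering. Of the 77 listed interferon genes found in at least 10% of nuclei, 35.1% passed.

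Ifit1 was found in 28 of 33 nuclei of cluster 3 (84.8%, 68.1 to 94.9), against 4 of 21 nuclei of cluster 9 (19.0%, 5.45 to 41.9). With neither nucleus of each alike pair, these clusters had shares of 82.8% and 23.5%. Cluster 3 was led by Ulbp1 and Slc6a2. Ifit3 was found in 57.7% (36.9 to 76.6) of cluster 6, led by Nppb and Nxph4, against 14.3% (3.05 to 36.3) of cluster 9. Usp18 was found in 78.8% (61.1 to 91.0) of cluster 3, against 32.4% (18.0 to 49.8) of cluster 2, led by Htr4. Summed levels of Ifit1 were 74.2 RPM in cluster 3 and 71.0 in cluster 6, against 13.8 RPM in cluster 9 and 7.25 in cluster 7, in which Cck was found in 68.4% of nuclei.

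The remaining genes varied less, and not in the same order. Isg15 was highest in cluster 6, in 8 of 26 nuclei (30.8%), and was found in 0 of 19 nuclei of cluster 7, with an exact upper bound of 17.6%. Irf7 was highest in cluster 5 (53.3%), led by the injury-induced Atf3 and by Ifi202b, and lowest in cluster 9 (19.0%). B2m was found in at least 94.7% of every cluster, while its summed level was 337.0 RPM in cluster 6 and 78.7 RPM in cluster 9. The median nucleus held 7 of the 9 genes in cluster 6 and 4 in clusters 7 and 9.

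**Figure D5:**
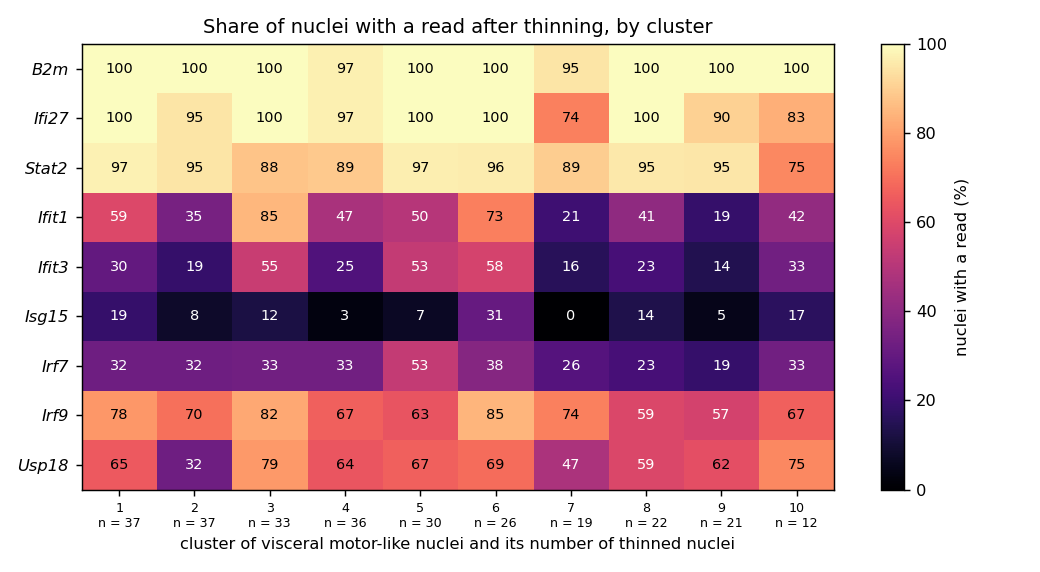
Percent of thinned nuclei with a read of each gene (rows) in the 10 clusters of visceral motor-like nuclei (columns, with the number of nuclei). Ifit1 is highest in cluster 3 (84.8%) and cluster 6, and clusters 7 and 9 are low for Ifit1, Ifit3 and Isg15.

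Clusters also differed in RNA makeup and in other cells' markers. The median summed level of ribosomal protein genes was 1529 RPM in cluster 3 and 2053 in cluster 6, against 832.1 RPM in cluster 9 and 1191 in cluster 7. The median mitochondrial share was 0.150% and 0.159% in clusters 3 and 6, against 0.0280% and 0.0536% in clusters 9 and 7. The 7 microglia markers had median summed levels of 22 RPM in cluster 3 and 11 RPM in cluster 6, against 0 RPM in clusters 9 and 7, and the highest median was 31 RPM, in cluster 5. The part of ribosomal, mitochondrial and microglia marker RNA in the differences between clusters was not tested.

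In the 67 nuclei left out, 2 of the 9 genes, B2m and Ifi27, had a read in more than 3 nuclei, and 5.33% of the 29265 genes did.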

How the data were processed

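Raw read counts per gene and nucleus, not normalised, were deposited by the authors for 383 nuclei. Per the labels' protocols, libraries were made with Smart-seq2 using 22 amplification cycles. Smart-seq2 reads carry no molecular identifiers, so they are not independent molecules. Per the submitters' processing notes, the build was GRCm38 and the tools were bcl2fastq, STAR, Picard, edgeR and Seurat 3, with no roles given. Which annotation and which way of counting they used is not given in the sources used here.

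From these counts, nuclei with at least 1000 genes were kept (316) and thinned without replacement to 500000 reads (295 nuclei). Shares have exact Clopper-Pearson 95% intervals. RPM is summed reads per 1000000 reads of the same nuclei. Correlations use log2(RPM + 1). Clustering used scanpy 1.11.5 (2000 variable genes, 15 components, 10 neighbours, Leiden resolution 1) without listed interferon, mitochondrial or ribosomal protein genes. A cluster was motor-like where the mean share of cholinergic markers exceeded that of each list of another cell or transmitter type, and somatic or visceral by the larger marker share. Since each well received 1 sorted nucleus, doublets were not called. Alike pairs were those with a correlation of at least 0.7 over genes found in 10% to 90% of nuclei; where 1 was kept, it was the one with more reads. Thinning, the share limits and correlations were tested on simulated data with groups of equal size, large share differences and a fully linked pair. Small groups and weak correlations, as reported above, were not simulated. Coordinates come from GENCODE M21 and promoters from RefSeq, both GRCm38.

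The 9 genes and the lists were chosen with earlier results of these data known. The genes named are the 9, the 3 most often found of each list, Ifnar1, Ifnar2, Ifit3b and Tlr9, and the 3 closest genes of each of the 9 and the 10 closest of all by correlation. Others were named after their values were seen. Some listed genes are not reported here. The nuclei form 1 group without replicate animals, so no test was run.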

Additional observations from a re-analysis of the deposited data

Results flagged for a closer look

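Among the 67 nuclei left out because fewer than 1000 genes had a read, with a median of 2328 reads, 2 of the 9 genes had a read in more nuclei than the 3 that a count of 0 allows (4.48%), as did 5.33% of all genes. B2m had a read in 7 of them (10.4%, 4.31 to 20.3) and Ifi27 in 5 (7.46%, 2.47 to 16.6). Both intervals reach below 4.48%. These nuclei take part in no comparison above.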

How the results depend on the processing

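Across 16 alternatives, the median thinned share of the 9 genes (60.0%) ran from 44.4% to 63.6%, and the share of nuclei with at least 6 of the 9 genes from 33.9% to 48.6%. The lowest value of both came from requiring at least 5 reads. In nuclei without a read of the 7 microglia markers, an alternative added later, the second share was 37.1%. The median pair correlation ran from 0.17 to 0.24 over 20 alternatives. No gene passed the limit between classes under any of 19 alternatives, among them limits of 20 points and other cluster settings. Between clusters, 3 genes passed, but 0 did with a minimum of 500 genes a nucleus, 1 did with 20 neighbours and 1 with 1 nucleus of each alike pair, while 3 did with neither nucleus of each pair. The cause was not tested. Single differences between classes moved with the division of nuclei. At resolution 1.5, with 14 somatic motor-like nuclei, the difference was 5.69 points for Ifi27, 1.04 for Stat2 and 4.50 for Usp18, against -13.8, -10.9 and -15.7 reported. No paired analysis was possible because all nuclei form 1 group. A depth of 500000 reads and 22 somatic motor-like nuclei limit what can be seen for Isg15 and Irf7.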
